A study of Mus musculus with 8 samples.

Results

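The 9 genes described here encode the prolactin receptor Prlr, its close relative the growth hormone receptor Ghr, the kinase Jak2, the transcription factors Stat5a and Stat5b, and the feedback inhibitors Cish, Socs1, Socs2 and Socs3. They were found by symbol in the read counts of mouse paw tissue, and all 9 were present among 22609 gene symbols. All 9 also passed the filter on low counts, which kept 14790 genes. The 8 libraries came from paws of C57BL/6J mice, 4 libraries from females and 4 from males, and the labels name no animal for each library. Every paw had received 0.1 µg prolactin (PRL) into the sole of the paw, 1 injection per day for 12 days, per the labels. Vehicle-injected paws were not analysed here. The values therefore describe these genes under prolactin and carry no measure of what the hormone did. Nothing in the labels says that the animals were otherwise altered, and the sources used here give no age. The sampled tissue was paw, so each value averages over whatever skin, connective tissue, vessels, nerve endings and muscle the sample held.

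Prolactin is a pituitary hormone best known for its part in lactation. It binds a single-pass receptor without enzyme activity of its own, and the kinase JAK2, held at the inner side of the receptor, phosphorylates STAT5A and STAT5B, which then enter the nucleus and switch on target genes. Growth hormone uses the same kinase and the same STATs through GHR. Among the first targets are CISH and SOCS2, which bind the receptor and dampen it, while SOCS1 and SOCS3 inhibit JAK kinases directly and are also induced by interferons and by cytokines of the interleukin-6 family. STAT5 acts by phosphorylation, which transcript counts do not report.

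STAT5 dimers bind the palindrome TTCNNNGAA, and the promoter of Cish is the textbook example of such binding. RefSeq promoters of build GRCm38.p6, running from 250 bases before to 50 bases after an annotated start, were matched by symbol for 8 of the 9 genes, all but Socs2, with 13 promoters in all. The motif TTCNNNGAA, which reads the same pattern on both strands, was searched in each of them and in all 32544 distinct promoters of that length, of which 8.33% held at least 1 match and 0.461% at least 2. Of the 13 promoters 3 held it, belonging to Cish, Prlr and Socs3. These 3 are shown because they are the receptor and feedback genes whose letters match the binding pattern, with the matches in capitals and each read 5′ to 3′ on the strand of its gene.
Cish, chr9:107296409-107296708, plus strand: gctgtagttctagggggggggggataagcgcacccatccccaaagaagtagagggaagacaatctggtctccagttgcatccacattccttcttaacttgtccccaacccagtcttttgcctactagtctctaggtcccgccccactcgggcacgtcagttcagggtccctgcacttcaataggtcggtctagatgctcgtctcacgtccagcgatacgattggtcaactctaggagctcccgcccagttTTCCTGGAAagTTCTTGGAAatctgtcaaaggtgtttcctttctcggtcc
Prlr, the second of 3 annotated starts, chr15:10223656-10223955, plus strand: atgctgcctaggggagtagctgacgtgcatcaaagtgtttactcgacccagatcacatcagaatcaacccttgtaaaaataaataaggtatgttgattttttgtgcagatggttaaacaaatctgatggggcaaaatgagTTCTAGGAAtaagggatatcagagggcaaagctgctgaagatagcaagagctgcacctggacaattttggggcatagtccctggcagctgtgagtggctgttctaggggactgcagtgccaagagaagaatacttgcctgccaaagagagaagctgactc
Socs3, chr11:117969317-117969616, minus strand: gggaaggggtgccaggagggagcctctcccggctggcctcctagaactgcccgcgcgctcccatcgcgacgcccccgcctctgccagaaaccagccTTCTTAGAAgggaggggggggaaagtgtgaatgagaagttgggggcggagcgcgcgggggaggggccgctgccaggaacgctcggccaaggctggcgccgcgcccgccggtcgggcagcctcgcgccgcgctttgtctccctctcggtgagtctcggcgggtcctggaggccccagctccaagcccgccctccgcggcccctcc

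The Cish promoter held 2 matches, TTCCTGGAA and TTCTTGGAA, which begin at bases 1 and 12 after the annotated start. The match in Prlr, TTCTAGGAA, begins at base -110 from that start, and the match in Socs3, TTCTTAGAA, begins at base -154 from its own. The end of the Cish promoter sequence was found in a GENCODE transcript of that gene, while those of the Prlr and Socs3 sequences were not found in theirs. None of these matches was tested for binding, and a promoter without a match says only that these letters are not in that window.

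Libraries held 16753528 to 24993744 counts in genes, and each of the 9 genes had at least 61 counts in each library. Keratinocyte markers were abundant throughout, with summed levels of 74377 to 109299 CPM (read counts scaled to a common library size by TMM) in females and 91013 to 117935 CPM in males. Muscle content differed far more. The mean log2 CPM of 20 fast skeletal muscle genes, called the muscle score here, was 9.52, 6.59, 0.58 and 7.53 in female replicates 1 to 4 and 7.22, 9.97, 7.86 and 4.90 in male replicates 1 to 4. These genes made up 0.00485% of the counts in female replicate 3 and 3.03% in male replicate 2. Female replicate 3 therefore held almost no muscle transcript, and female replicate 1 and male replicate 2 held the most. The labels do not say how the tissue was cut.

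Some reads could be shared with neighbours or copies. Of all 50-base windows of GENCODE M21 transcripts, 8.52% of those of Stat5a and 11.0% of those of Stat5b also occurred in another gene, and 608 windows were common to the pair. The share was 9.35% for Cish, 4.58% for Socs2, 1.04% for Prlr and 0 for Ghr, Jak2, Socs1 and Socs3. Reads from the windows common to Stat5a and Stat5b cannot be placed uniquely. Exons of Stat5a overlap those of Stat3 on the opposite strand, and exons of Cish overlap the genes Gm17040 and Gm17041 on the opposite strand. Exons of Prlr overlap the gene Gm21973 on the same strand. The sources used here do not give the strand setting or the annotation of the counting, so reads of these overlapping genes may not have been told apart.

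Per kilobase of exon, the growth hormone receptor stood highest among the 9 genes and Socs1 lowest. On the union of GENCODE exons, Ghr averaged 15.4 ± 4.21 CPM per kb (SD, n = 8), Stat5b 14.1 ± 5.65, Jak2 13.5 ± 1.58, Socs3 11.3 ± 3.06 and Stat5a 9.48 ± 0.811 CPM per kb. The inhibitors Cish and Socs2 stood at 5.75 ± 1.63 and 4.69 ± 0.797 CPM per kb, the prolactin receptor at 2.64 ± 0.697 and Socs1 at 1.25 ± 0.243 CPM per kb. The order was the same on the length of the longest coding transcript. Of the 8 steps in this order, only the last, Prlr above Socs1, had ranges over the libraries that did not overlap. Prlr was the lower of the pair in 8 of 8 libraries when set beside Socs2, and Stat5a exceeded Cish in 7 of 8. Stat5b exceeded Jak2 in 3 of 8 libraries on one length and in 5 of 8 on the other. These levels rest on lengths from GENCODE M21, which for Prlr include 13120 bases of exon, while the annotation used for counting is not given. Before division by length Prlr averaged 34.6 CPM and Socs2 12.7 CPM. The share of the long and short isoforms of Prlr was not measured by counts per gene.

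**Figure D1:**
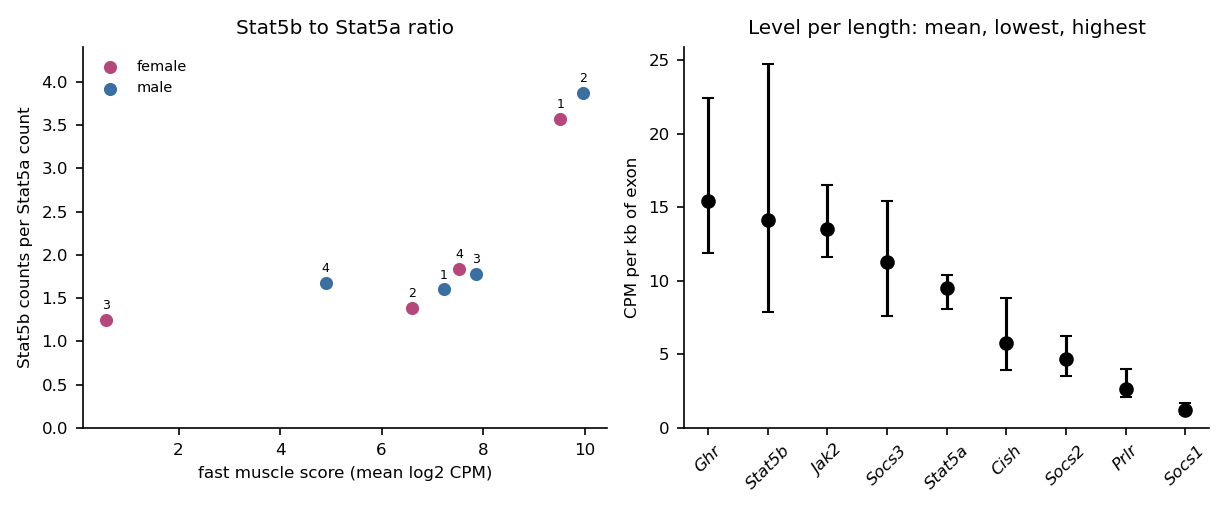
Left, Stat5b counts per Stat5a count (vertical axis) against the muscle score, the mean log2 CPM of 20 fast muscle genes (horizontal axis), with 1 numbered point per library; the muscle-rich female replicate 1 and male replicate 2 stand at 3.57 and 3.87, above the other 6. Right, level per length in CPM per kb of exon, with the mean over 8 libraries as a point and the lowest and highest library as bars, from Ghr down to Socs1.

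The prolactin receptor was detected in every paw and varied most among females. Prlr stood at 28.7, 44.9, 52.5 and 27.3 CPM in female replicates 1 to 4, against 31.3, 28.4, 30.0 and 33.7 CPM in male replicates 1 to 4. Female replicates 2 and 3 were above all males and female replicates 1 and 4 were below 3 or more of them, so the sexes overlapped. The female over male log2 fold change was 0.31 (SE 0.21), which did not pass the edgeR quasi-likelihood test (adjusted p = 0.906). Females had a standard deviation of 12.3 CPM and males one of 2.24 CPM over 4 libraries each. A difference in transcript between such bulk samples can come from the number of cells of a type or from the RNA per cell, which cannot be told apart. The log2 fold change of Prlr was 0.13 without female replicate 3, the library lowest in muscle transcript, and 0.15 in a fit that also held the muscle score.

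Ghr, the receptor of growth hormone, followed a different pattern. It stood at 104, 56.8, 65.4 and 71.9 CPM in female replicates 1 to 4, against 55.1, 99.2, 57.3 and 60.7 CPM in male replicates 1 to 4. The highest values were those of female replicate 1 and male replicate 2, the libraries richest in muscle, and the sexes overlapped (female over male 0.13 on the log2 scale, SE 0.24, edgeR adjusted p = 0.999). Adipocyte markers, from another tissue known to carry the receptor, summed to 603 to 2790 CPM in females and 912 to 3219 CPM in males, and were lowest in female replicate 3 and highest in male replicate 2. On average, most of that sum was Car3, a carbonic anhydrase that muscle also expresses (870 CPM on average in females and 1066 CPM in males), and 8 of the 12 markers had slopes below 0 on the muscle score. The part of adipocytes in the level of Ghr was not tested. For Ghr the log2 fold change was 0.25 in a fit that also held the muscle score, and ran from -0.08 without female replicate 1 to 0.36 without male replicate 2.

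Jak2, the kinase bound to these receptors, was among the steadier genes. It stood at 70.9, 67.8, 70.9 and 82.8 CPM in female replicates 1 to 4, against 60.1, 69.6, 60.9 and 58.5 CPM in male replicates 1 to 4. Male replicate 2 lay above female replicate 2, and otherwise each female lay above each male. Females averaged 73.1 ± 6.63 CPM and males 62.3 ± 4.97 CPM (mean ± SD of 4 libraries), and the log2 fold change was 0.23 (SE 0.09). The unadjusted p was 0.0292 in edgeR, and the gene did not pass after adjustment over all tested genes (adjusted p = 0.718). An unadjusted p under 0.05 was reached by 6.53% of all tested genes, and Jak2 was the only 1 of the 9 to reach it.

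The neighbouring STAT5 genes behaved unlike each other. Stat5a stood at 32.0, 41.3, 35.0 and 38.2 CPM in female replicates 1 to 4, against 39.8, 35.4, 40.8 and 38.3 CPM in male replicates 1 to 4, and was the least variable of the 9 (coefficient of variation 8.58% over the 8 libraries). Stat5b was the most variable (40.3%), at 114, 57.6, 43.8 and 70.3 CPM in female replicates 1 to 4 against 63.6, 137, 72.5 and 64.3 CPM in male replicates 1 to 4. A lower coefficient than that of Stat5a was found for 19.0% of all tested genes, and a lower one than that of Stat5b for 87.7%. The highest Stat5b levels were again in female replicate 1 and male replicate 2, and the lowest in female replicate 3. Stat5b had 3.57, 1.39, 1.25 and 1.84 counts per Stat5a count in female replicates 1 to 4, against 1.60, 3.87, 1.78 and 1.68 in male replicates 1 to 4. Neither gene passed the edgeR test between the sexes (Stat5a log2 fold change -0.08, SE 0.10, and Stat5b -0.24, SE 0.36, adjusted p = 0.999 for both). For Stat5b this fold change was 0.08 on the log2 scale without male replicate 2, -0.57 without female replicate 1 and -0.04 in a fit that also held the muscle score.

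Cish, the STAT5-induced inhibitor with the paired motif shown above, was highest where muscle transcript was lowest. It stood at 14.3, 22.0, 32.3 and 15.6 CPM in female replicates 1 to 4, against 19.2, 18.0, 19.9 and 26.6 CPM in male replicates 1 to 4. Its level was highest in female replicate 3 and next in male replicate 4, the libraries lowest in muscle, and lowest in the muscle-rich female replicate 1. The female values enclosed all male values, and females averaged 21.0 ± 8.22 CPM and males 20.9 ± 3.87 CPM (mean ± SD of 4 libraries). The log2 fold change was 0.005 (SE 0.26, unadjusted p = 0.985 in edgeR), and without female replicate 3 it was -0.28 with no call.

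Socs2, a feedback inhibitor of growth hormone signalling, stood at 13.1, 12.2, 12.4 and 16.8 CPM in female replicates 1 to 4, against 9.60, 11.9, 11.1 and 14.2 CPM in male replicates 1 to 4. Each female was above 3 of the 4 males, and male replicate 4 was above 3 of the 4 females. The log2 fold change was 0.22 (SE 0.16, edgeR adjusted p = 0.920), or 0.10 without female replicate 4. Socs1, an inhibitor induced by interferon gamma, was scarce at 61 to 101 counts per library. It stood at 4.36, 2.82, 3.18 and 3.85 CPM in female replicates 1 to 4, against 3.18, 3.42, 3.33 and 4.94 CPM in male replicates 1 to 4 (female over male -0.07 on the log2 scale, SE 0.22, edgeR adjusted p = 0.999). The sexes overlapped over most of their ranges.

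Socs3, which dampens interleukin-6 type signals, stood at 39.0, 25.2, 19.8 and 39.3 CPM in female replicates 1 to 4, against 19.4, 32.6, 29.8 and 24.9 CPM in male replicates 1 to 4. Female replicates 1 and 4 were above all males, and female replicate 3 was close to the lowest male. The log2 fold change was 0.21 (SE 0.25, edgeR adjusted p = 0.999), and it was 0.06 without female replicate 4, 0.37 without female replicate 3 and 0.33 in a fit that also held the muscle score. Female replicate 4 also had the highest summed macrophage markers (2796 CPM, against 1929, 891 and 807 CPM in female replicates 1 to 3 and 1471 to 1732 CPM in males). Its summed fibroblast, endothelial, T cell, mast cell and Schwann cell markers were the highest of the 8 libraries too. The part of these cells in the level of Socs3 was not tested.

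**Figure D2:**
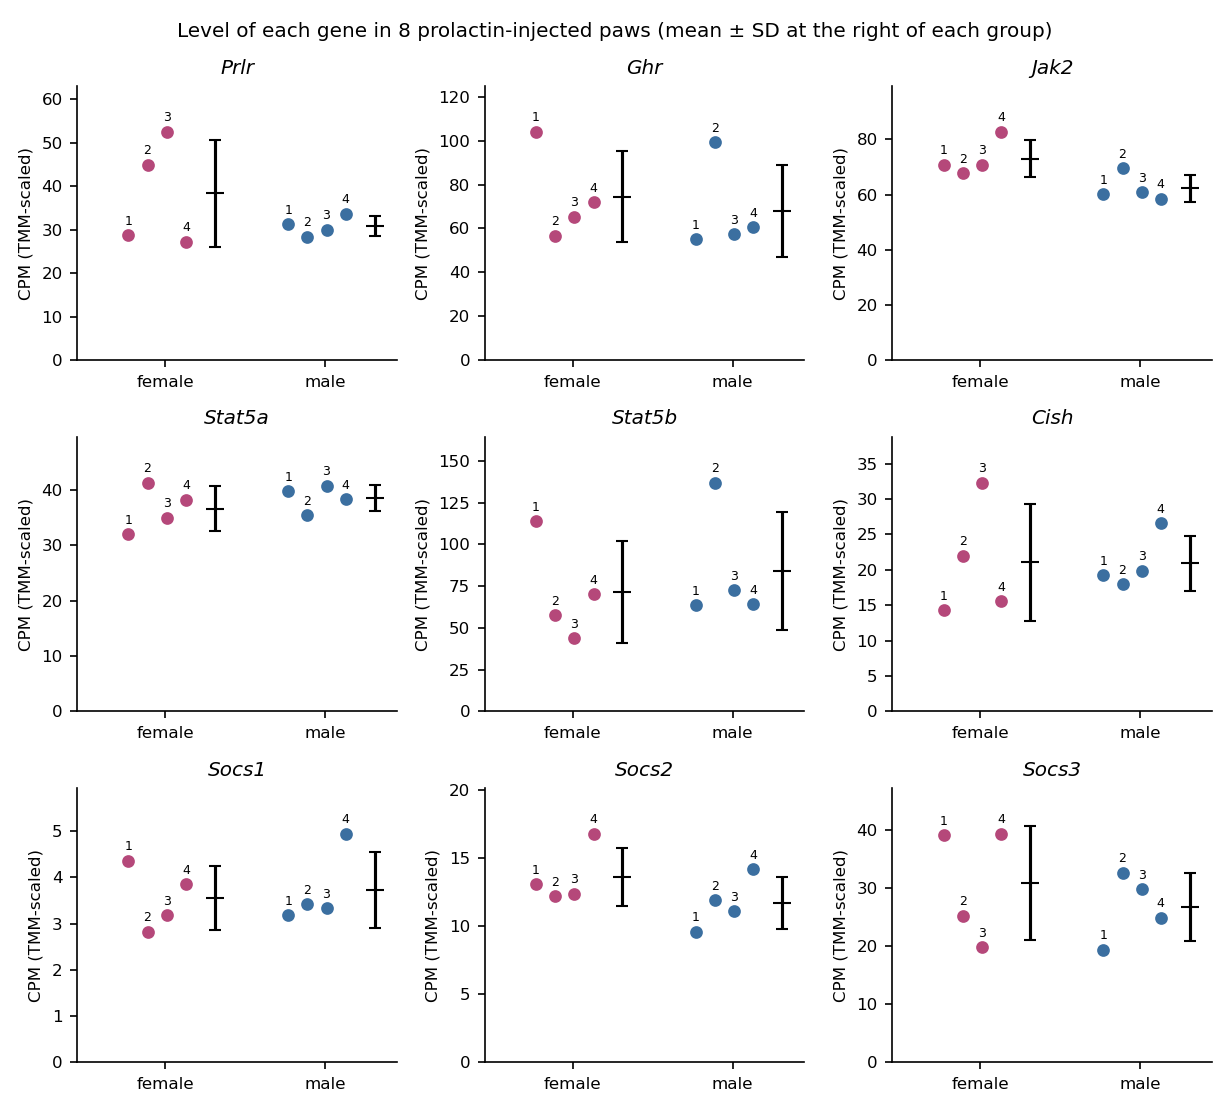
Level of each of the 9 genes in CPM (vertical axis, from 0) in female and male paws (horizontal axis), with 1 numbered point per library and the mean ± SD of 4 libraries at the right of each group. The sexes overlap in all 9 panels, and Stat5b spans 43.8 to 137 CPM while Stat5a stays within 32.0 to 41.3 CPM.

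Between females and males, edgeR called 0 of the 9 genes, where 0.0947% of all tested genes were called. DESeq2 and limma-voom also called 0 of them, and 1 (Jak2) had an unadjusted p under 0.05. The sexes did not overlap for 0 of the 9, against 4.73% of all tested genes. Of the 9 log2 fold changes 6 lay above 0 and 3 below, with a median of 0.133, against a median of 0.010 over all tested genes. The SE of a log2 fold change ran from 0.09 for Jak2 to 0.36 for Stat5b.

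Over the 8 libraries, Cish fell and Stat5b rose with the muscle score. In an edgeR fit with sex as a further term, Cish changed by -0.127 on the log2 scale per unit of score (SE 0.020, adjusted p = 0.00858), where 1 unit is a doubling of the average muscle transcript. Stat5b changed by 0.156 per unit (SE 0.034, adjusted p = 0.0415). Among all tested genes 5.56% were called, 4.75% rising and 0.811% falling, and 2 of the 9 genes were called here, 1 in each direction. That balance depended on scaling: 702 genes rose and 120 fell with TMM, while 657 rose and 292 fell with upper quartile factors, which called 3 of the 9. The median slope over all tested genes was 0.003. The call of Cish was lost without female replicate 1 (slope -0.126, adjusted p = 0.0713) or female replicate 3 (-0.131, adjusted p = 0.0974) and was kept without any other single library. The call of Stat5b was kept without female replicate 2 or 3 and lost without any of the other 6 (adjusted p up to 0.242), with slopes from 0.125 without male replicate 2 to 0.243 without female replicate 3. It was also lost when the score was taken from the slow muscle list (slope 0.205, adjusted p = 0.0679) or as the log2 share of counts in fast muscle genes (0.155, adjusted p = 0.0522).

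The receptor and Socs3 had slopes of opposite sign and did not pass. Prlr had a slope of -0.089 (SE 0.024, edgeR adjusted p = 0.0756) and passed when the sex term was left out (slope -0.096, adjusted p = 0.0423), with upper quartile scaling (-0.101, adjusted p = 0.0496) and in DESeq2 (-0.092, adjusted p = 0.0195), as well as without female replicate 2 (-0.095, edgeR adjusted p = 0.0138). Socs3 had a slope of 0.108 (SE 0.031, edgeR adjusted p = 0.0804) and passed in DESeq2 (0.104, adjusted p = 0.0238) and without female replicate 2 (0.111, edgeR adjusted p = 0.0371). DESeq2 called 1911 of 18482 genes, and the edgeR fit without female replicate 2 called 2295 of 14946. The main fit called 822 of 14790. An unadjusted p under 0.05, which Prlr, Stat5b, Cish and Socs3 all had, was reached by 26.4% of all tested genes. Ghr had a slope of 0.075 (SE 0.035, edgeR adjusted p = 0.218), or 0.173 (adjusted p = 0.0997) without female replicate 3. Stat5a (-0.006, SE 0.019), Jak2 (0.017, SE 0.016), Socs2 (0.005, SE 0.031) and Socs1 (0.008, SE 0.041) had slopes within about their SE of 0, and none of these passed (edgeR adjusted p from 0.524 to 0.930).

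**Figure D3:**
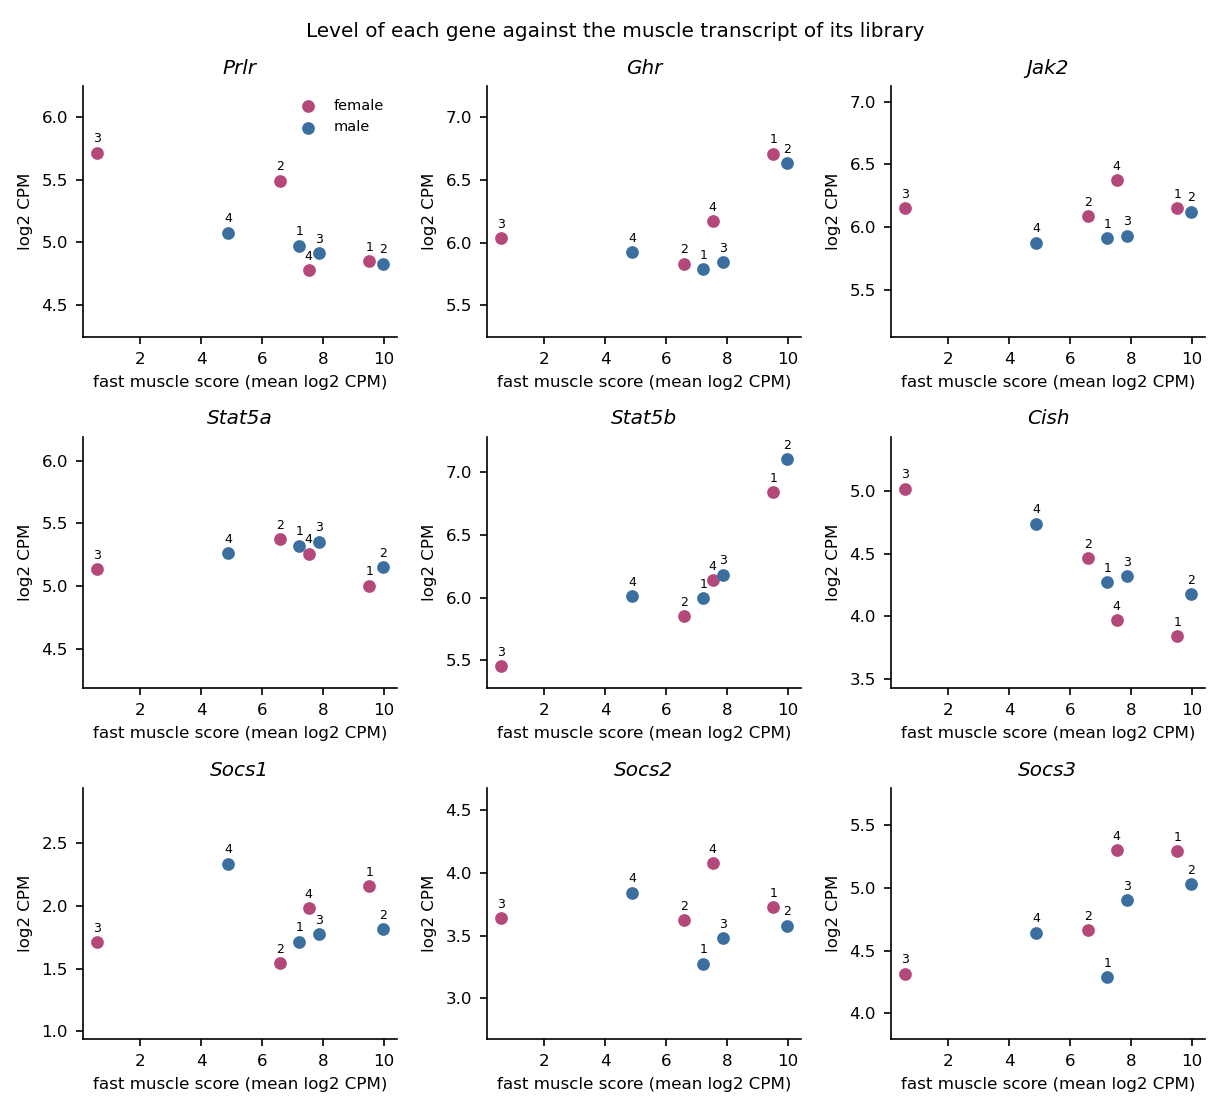
Level of each gene in log2 CPM (vertical axis, spanning the same 2 log2 units in every panel) against the muscle score of the library (horizontal axis, mean log2 CPM of 20 fast muscle genes), with numbered points for female and male libraries. Cish declines and Stat5b climbs along the axis, whose left end is held by female replicate 3 alone at 0.58, while Stat5a is flat.

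As plain correlations over the 8 libraries, with p-values from exact permutation of pairings adjusted over all tested genes, Cish had a Pearson r of -0.89 (p = 0.00206, adjusted p = 0.0495) and a Spearman rho of -0.83 (exact permutation p = 0.0154, adjusted p = 0.108). Stat5b had r = 0.86 (p = 0.00590, adjusted p = 0.0862) and rho = 0.93 (p = 0.00223, adjusted p = 0.0381) in the same exact permutation tests. These tests called 4.17% of all tested genes by r and 5.86% by rho. With 1 library left out, the call of Cish by r was kept without male replicate 2 and lost without any of the other 7. Without the 2 libraries farthest from the median score, female replicate 3 and male replicate 2, r was -0.91 for Cish and 0.80 for Stat5b over the other 6. Prlr had r = -0.83 and rho = -0.83 (exact permutation p = 0.0141 and 0.0154, adjusted p = 0.127 and 0.108), and its r was -0.50 without those 2 libraries. The r of Prlr was -0.55 without female replicate 3 alone and -0.83 without male replicate 2 alone, so the correlation rests on female replicate 3, although its slope was -0.087 without that library. Socs3 had r = 0.69 and rho = 0.69 (exact permutation p = 0.0470 and 0.0694, adjusted p = 0.213 and 0.214), and r = 0.59 without them. Ghr had r = 0.50 and rho = 0.50 (exact permutation p = 0.202 and 0.216, adjusted p = 0.415 and 0.411), and r = 0.69 without them. For Jak2, Stat5a, Socs1 and Socs2 r lay between -0.07 and 0.13 and rho between -0.21 and 0.33, and none passed (exact permutation p from 0.763 to 0.885 for r and from 0.428 to 0.703 for rho). Within each sex the 4 libraries are too few for a correlation.

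Markers of other cell types were also set against the muscle score, and few of them passed in edgeR. All 14 keratinocyte, 12 hair follicle and 10 sweat gland markers tested had slopes below 0, with medians of -0.064, -0.144 and -0.125 and 1, 0 and 1 called by edgeR, where 5.56% of all tested genes were called. An unadjusted edgeR p under 0.05 was reached by 7, 4 and 8 of them, and by 26.4% of all tested genes. All 12 fibroblast, 11 endothelial and 11 macrophage markers had slopes above 0, with medians of 0.090, 0.072 and 0.129 and 0 called by edgeR, where 3, 3 and 1 had an unadjusted p under 0.05. DESeq2 called 6 keratinocyte, 4 hair follicle and 7 sweat gland markers falling and 2 fibroblast and 3 Schwann cell markers rising. It called 1911 of 18482 genes in all. Of the 12 adipocyte markers 4 had slopes above 0 and 8 below, and Car3 was called rising by both tools. DESeq2 also called Alas2, the 1 erythroid marker tested, rising and the mast cell marker Kit falling. Of the 9 mast cell markers 7 had slopes above 0 and 2 below, with a median of 0.093, and edgeR called 0 of them. Summed hair follicle markers stood at 848 CPM in female replicate 3 and 112 CPM in male replicate 2, and summed sweat gland markers at 1022 and 595 CPM in the same libraries. Of the slow muscle genes 11 of 12 were called rising (median slope 0.900). Which of these cells the changes in Cish, Stat5b or Prlr belong to was not tested.

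**Figure D4:**
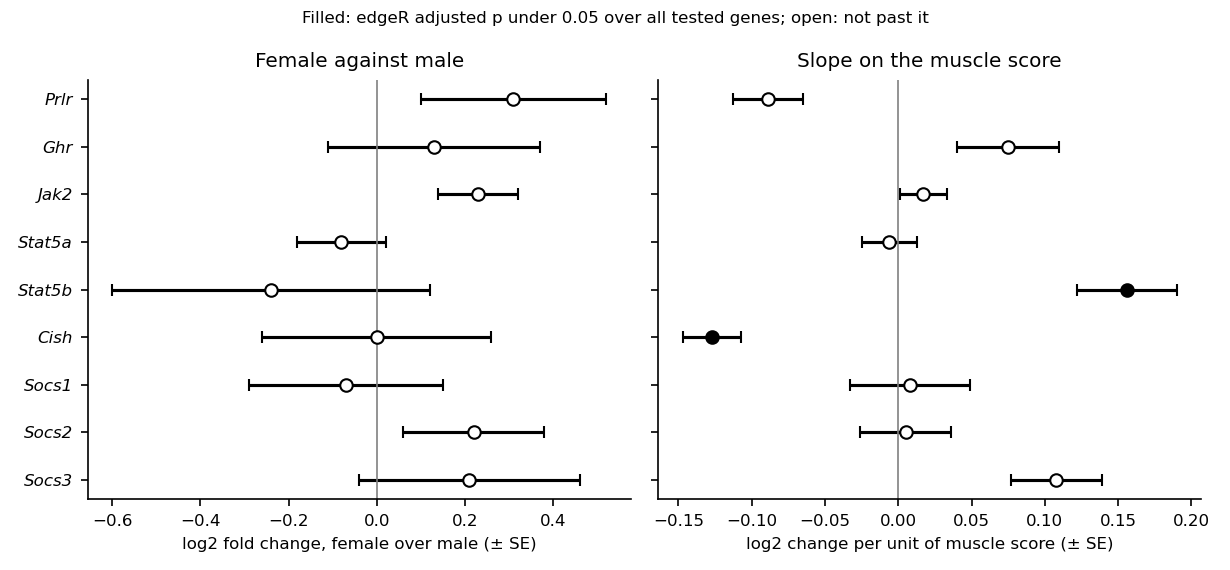
Left, log2 fold change of each gene, female over male, with its SE; right, log2 change per unit of muscle score with its SE, from the edgeR fits. Filled points have an adjusted p under 0.05 over all tested genes: none at the left, and Cish (-0.127) and Stat5b (0.156) at the right.

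Some of the pairwise correlations among the 9 genes over the same 8 libraries are given as a description. Prlr and Cish had r = 0.82, which was 0.31 once the muscle score had been regressed out of both. Stat5b had r = -0.74 with Prlr and -0.73 with Cish, and -0.10 and 0.18 with the score regressed out. Ghr had r = 0.82 with Stat5b and -0.85 with Stat5a, and these were 0.88 and -0.95 with the score regressed out. Stat5a and Stat5b had r = -0.47, and -0.82 with the score regressed out. Socs2 and Socs3 had r = 0.59, and 0.87 with the score regressed out. Cish and Socs3 had r = -0.79, and -0.53 with the score regressed out. Jak2 had r = 0.57 with Socs3 and -0.38 with Cish, and 0.72 and -0.70 with the score regressed out. All pairs share the same libraries and scaling.

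The genes most like each of the 9 were taken as the 3 of highest Pearson r in log2 CPM over the 8 libraries, among 11904 genes (11905 for Socs1) with a mean of at least 5 CPM. The highest of so many correlations over 8 libraries is large by selection alone, so these genes are given as a description. For Prlr they were Hiatl1 (r = 0.992), Znrf2 (0.989) and 1110067D22Rik (0.986). For Cish they were Gyk, a glycerol kinase (0.996), 1110002B05Rik (0.984) and Skint3 (0.974). For Stat5b they were Dynll2, a dynein light chain (0.996), and Ndufb8 and Ndufa5, subunits of respiratory complex I (0.993 and 0.992). For Stat5a they were Fkbp2 and Scamp2 (0.969 each) and Kif2c (0.948), and for Ghr they were Dgkz (0.966), Flii (0.962) and Gpd1 (0.959). Jak2 was closest to Atf2 (0.968), Kif2a (0.964) and Cdyl (0.959), Socs1 to Daglb (0.959), Stard3 (0.934) and Cysltr1 (0.927), Socs2 to Fbxw17 (0.941), Sh2b2 (0.936) and Gm13157 (0.926), and Socs3 to Scarf1 (0.990), Slc39a13 (0.985) and Idua (0.979). With the muscle score regressed out, Gyk (0.984), Dynll2 (0.984), Dgkz (0.981), Daglb (0.972) and Scarf1 (0.990) were again among the 3 closest to Cish, Stat5b, Ghr, Socs1 and Socs3, while the closest to Prlr were Birc2 (0.993), BC024659 (0.991) and Fbxo8 (0.986).

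Transcripts of prolactin and growth hormone themselves were nearly absent from the paws. Prl had 0 counts in each of the 8 libraries, which allows up to 0.0349 CPM in females and 0.0382 CPM in males (3 counts over each group, for counting error only), and injected protein is not seen in RNA counts. Gh had 1 count, in male replicate 2, and 0 in the other 7. Of 10 STAT5 cytokine ligands, 3 were tested. Thpo, which encodes thrombopoietin, was called rising with the muscle score (slope 0.486, SE 0.070, edgeR adjusted p = 0.00560), at 6.30, 2.08, 0.441 and 1.77 CPM in female replicates 1 to 4 and 1.44, 7.80, 2.18 and 0.881 CPM in male replicates 1 to 4. It was highest in the muscle-rich female replicate 1 and male replicate 2. Il7 (-0.028, SE 0.036) and Tslp (0.083, SE 0.045), cytokine genes made by epithelia, did not pass.

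Of 12 other STAT5 cytokine receptors 10 were tested, and neither comparison called any of them by edgeR, by DESeq2 or by limma-voom. By edgeR 1 had an unadjusted p under 0.05 between the sexes and 0 on the muscle score, where 6.53% and 26.4% of all tested genes did. That gene, Il7r (the interleukin-7 receptor), had 13.0, 12.5, 11.6 and 13.3 CPM in female replicates 1 to 4, against 10.7, 6.84, 10.0 and 9.55 CPM in male replicates 1 to 4 (female over male 0.44 on the log2 scale, SE 0.15, edgeR adjusted p = 0.668). Each female lay above each male, and the sexes did not overlap, in either direction, for 4.73% of all tested genes. Of 8 other JAKs and STATs 7 were tested and 0 were called by any of the 3 tools or reached an unadjusted p under 0.05, and the largest slopes belonged to Jak3 (0.068, SE 0.049) and Jak1 (0.024, SE 0.017). Stat3 and Stat6 stood at 179 and 169 CPM on average in females and 170 and 172 CPM in males, with log2 fold changes of 0.07 (SE 0.07) and -0.02 (SE 0.08).

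Of 13 other inhibitors of the pathway all were tested and 0 passed with any of the 3 tools, between the sexes or on the muscle score. By edgeR 4 had an unadjusted p under 0.05 on the muscle score and 2 between the sexes, both lower in females, where 26.4% and 6.53% of all tested genes did. Socs6, another member of the SOCS family, stood at 33.4, 32.2, 34.1 and 34.5 CPM in female replicates 1 to 4, against 37.8, 39.7, 38.4 and 42.1 CPM in male replicates 1 to 4 (female over male -0.23 on the log2 scale, SE 0.07, edgeR adjusted p = 0.567). Each female lay below each male, where 4.73% of all tested genes had no overlap of the sexes in either direction. Socs5 stood at 32.9, 24.3, 24.0 and 32.2 CPM in female replicates 1 to 4, against 31.2, 40.0, 36.0 and 35.4 CPM in male replicates 1 to 4 (-0.33, SE 0.14, adjusted p = 0.748), and its sexes overlapped. On the muscle score Socs7 (slope 0.073, SE 0.024), Sh2b3 (0.078, SE 0.027), Pias2 (0.054, SE 0.020) and Socs5 (0.047, SE 0.020) had the smallest p and did not pass (edgeR adjusted p from 0.114 to 0.173).

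All 9 tested adaptors of JAK2 had slopes above 0, with a median of 0.037, and 1 was called. Over all tested genes 7786 had slopes above 0 and 7004 below, with a median of 0.003, and 4.75% were called rising. Irs1, an adaptor best known from insulin signalling, rose with the muscle score (slope 0.166, SE 0.032, edgeR adjusted p = 0.0257). It stood at 51.3, 24.3, 18.6 and 39.6 CPM in female replicates 1 to 4 and 29.0, 57.7, 34.0 and 29.0 CPM in male replicates 1 to 4, with its highest levels in the same 2 muscle-rich libraries as Stat5b. Irs2 (0.109, SE 0.030), Gab2 (0.099, SE 0.030) and Sh2b1 (0.043, SE 0.015) did not pass (edgeR adjusted p = 0.0762, 0.0902 and 0.122). DESeq2, which called 1911 of 18482 genes, also called Irs2 and Gab2.

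Of 15 other known STAT5 target genes 11 were tested and 0 called by edgeR in either comparison. In each comparison 1 had an unadjusted edgeR p under 0.05, where 6.53% (sexes) and 26.4% (muscle score) of all tested genes did. DESeq2 called Elf5 (23 to 123 counts per library) on the muscle score, among 1911 of 18482 genes called. Of the 11 slopes 4 lay above 0 and 7 below, with a median of -0.027. The milk protein genes Csn2, Csn1s1 and Wap, targets in the mammary gland, had 0 counts in all libraries. Elf5, a transcription factor of mammary epithelium, had the steepest slope (-0.212, SE 0.057, edgeR adjusted p = 0.0703), at 1.35, 2.26, 5.43 and 1.27 CPM in female replicates 1 to 4 and 1.94, 1.44, 3.60 and 2.30 CPM in male replicates 1 to 4. Like Cish and Prlr it was highest in female replicate 3. Igf1, the growth factor induced by growth hormone, had a slope of 0.131 (SE 0.060, adjusted p = 0.213) and Ccnd1 (cyclin D1) one of -0.035 (SE 0.018, adjusted p = 0.249). Cdkn1a, a cell cycle inhibitor, had the smallest p between the sexes (log2 fold change -0.27, SE 0.11, edgeR adjusted p = 0.750). It averaged 285 CPM in females and 345 CPM in males.

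Of 11 genes of the interleukin-6 and interferon gamma axis, which induce Socs3 and Socs1, 9 were tested, and in either comparison 0 of them passed with any of the 3 tools or had an unadjusted p under 0.05. Il6 had 0 to 28 counts and Ifng 0 to 3 counts per library, too few to be tested. The signalling receptor Il6st had a slope of 0.068 (SE 0.036) and a log2 fold change of 0.06 (SE 0.23), Osmr had a log2 fold change of 0.18 (SE 0.13), and Ifngr1 a slope of 0.066 (SE 0.033). Lifr, which pairs with Il6st, had a slope of 0.043 (SE 0.021), and Il6ra, the interleukin-6 binding chain, one of -0.039 (SE 0.019). Slopes lay above 0 for 8 of the 9, with a median of 0.043, and for 7786 of 14790 tested genes, with a median of 0.003.

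**Figure D5:**
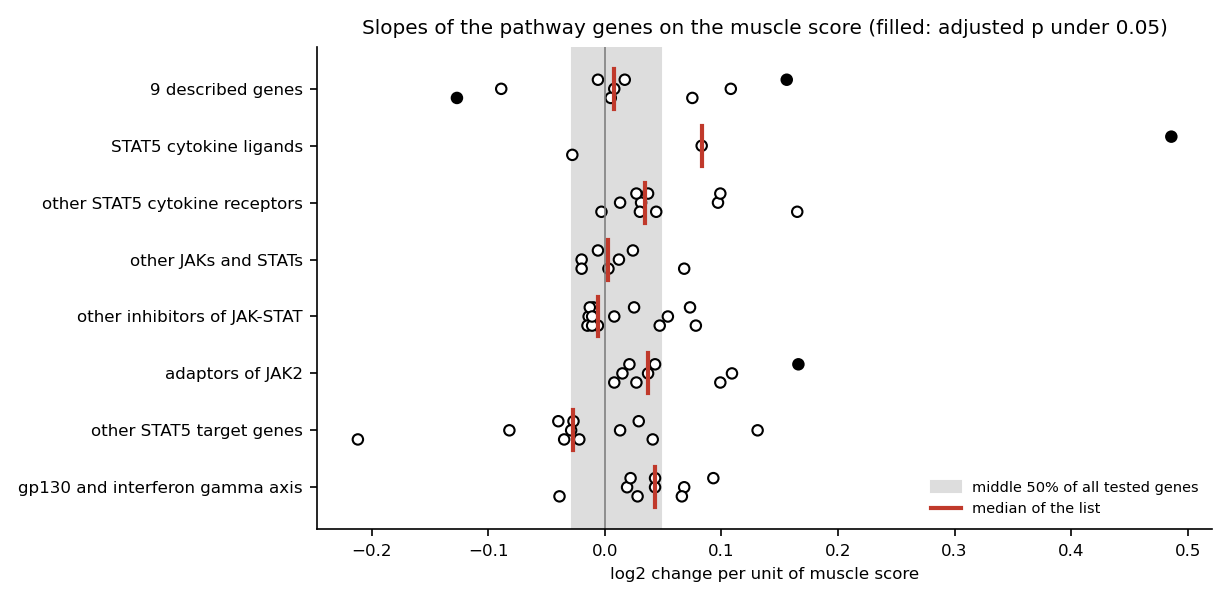
Log2 change per unit of muscle score (horizontal axis) of every tested gene in 8 lists (rows), with filled points for an edgeR adjusted p under 0.05, a red bar at each list's median and a grey band for the middle 50% of all tested genes. Filled points are Cish and Stat5b among the 9 described genes, Thpo (0.486) among the ligands and Irs1 (0.166) among the adaptors.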

How the data were processed

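Per the labels' protocols, about 500 ng total RNA per paw entered a stranded poly(A) kit and 50-base single-end reads were sequenced. The authors deposited whole-number read counts per gene symbol, without normalization; bcl2fastq, TopHat2 and HTSeq with build mm9 are named in the submitters' processing notes, without versions, annotation or strand setting. Lines that name no gene (among uniquely placed reads, 18.0 to 21.1% lay in no feature) stayed out of totals and tests. Same-sex libraries differed beyond sampling noise (chi-square per degree of freedom of at least 13.2 over genes with 20 or more counts) and were treated as 4 replicates per sex; the labels name no animal for each library, so p-values measure the spread between these libraries.

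Genes were filtered by filterByExpr and scaled by TMM, and 2 quasi-likelihood fits were run in edgeR 4.0.16 (R 4.3.3, limma 3.58.1, DESeq2 1.42.0): sex alone, and sex with the muscle score (mean log2 CPM, prior count 2). The Benjamini-Hochberg adjustment ran over the 14790 genes tested, with calls under an adjusted p of 0.05, and scripts were tested on simulated data. The SE is the log2 change over the root of F. Exon lengths came from GENCODE M21 and promoters from RefSeq, both of GRCm38, so no gene coordinates are given for the counts. Pathway genes named are up to 4 per list by p of slope and up to 2 by p of sex; the genes listed at or near 0 counts were named after their values were seen. The 9 genes and the lists were chosen with earlier results of these data known.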

Additional observations from a re-analysis of the deposited data

Results flagged for a closer look

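Across 30 sets of 4 same-sex libraries (log2 CPM of the 9 genes, the Stat5b to Stat5a ratio and library measures), 4 had a library whose gap to its nearest neighbour was large against the range of the set, which chance gives in about 1 of 20. The muscle-rich male replicate 2 accounted for 3 of them. Its Ghr level was 6.63 log2 CPM, where the other males had 5.79 to 5.92. Its Stat5b level was 7.10 log2 CPM, where the other males had 5.99 to 6.18, and it had 3.87 Stat5b counts per Stat5a count, where they had 1.60 to 1.78. The fourth was the Socs1 level of male replicate 4, at 2.33 log2 CPM, where the other males had 1.71 to 1.81.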

How the results depend on the processing

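Normalization, filter, tool and covariates were changed, and each library was left out in turn. The DESeq2 runs changed tool, scaling and filter together, over 18482 genes. Between the sexes 0 of the 9 genes were called under every alternative run, while the genes called among all tested numbered 14, against 111 in DESeq2 (54 higher and 57 lower in females) and 8 to 16 with 1 library left out. On the muscle score 822 genes were called, against 1911 in DESeq2 and 286 to 2295 with 1 library left out. Of the 9 genes 2 were called, against 4 in DESeq2, 1 with the slow muscle list (Stat5b adjusted p = 0.0679), 1 with the log2 share of counts (Stat5b adjusted p = 0.0522) and 0 to 4 with 1 library left out. By Pearson correlation 1 was called, against 0 with DESeq2 size factors, 0 with totals that leave out muscle genes and 0 to 1 with 1 library left out. The causes were not tested.

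Values near 0 changed sign. The log2 fold change of Cish between the sexes was -0.003 with DESeq2 size factors and in DESeq2, -0.006 with upper quartile factors, -0.002 with totals that leave out muscle genes, -0.05 in limma-voom and -0.23 in a fit that also held the muscle score. The slope of Socs1 was -0.004 and that of Socs2 -0.007 with upper quartile factors, and that of Socs2 was -0.004 without the sex term. With 1 library left out, log2 fold changes between the sexes ran from -0.08 to 0.36 for Ghr, -0.57 to 0.08 for Stat5b, -0.28 to 0.15 for Cish and -0.18 to 0.10 for Socs1. Slopes ran from -0.048 to 0.008 for Stat5a, -0.037 to 0.043 for Socs1 and -0.040 to 0.029 for Socs2. Pearson r ran from -0.09 to 0.44 for Jak2, -0.65 to 0.26 for Stat5a, -0.18 to 0.45 for Socs1 and -0.26 to 0.01 for Socs2.

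Female and male libraries share replicate numbers, but same-numbered libraries did not deviate together (correlations of their deviations from -0.308 to -0.0911). Muscle content also differed between same-numbered libraries, so these correlations do not settle whether the numbers pair them. With the replicate number as a block, 7 genes were called between the sexes and 248 on the muscle score, with 0 of the 9 among them (Cish slope -0.138, adjusted p = 0.0867; Stat5b 0.152, adjusted p = 0.196), and the log2 fold change of Cish between the sexes was -0.06. Depth limits Socs1 most, at 61 to 101 counts per library, and 4 libraries per sex limit every comparison.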
